A study of Mus musculus with 13 samples.

Results

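The 7 genes Adi1, Ap4s1, Arhgap5, Vcpkmt, Akap5, Churc1 and Fntb lie on mouse chromosome 12, the chromosome of Batf, and were chosen by their measured genotype difference: their array signal differed between wild-type and Batf-/- CD8+ T cells in the same 13 arrays that are described here. Every probe set assigned to one of these genes alone was taken, which gave 15 of the 45101 probe sets on the array, for 7 of the 18193 genes measured. All 7 genes map to chromosome 12 in RefSeq (GRCm38.p6), where 622 genes were measured. Since genotype differences chose the genes, those differences are described without a test.

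The cells were CD8+ T cells carrying the P14 T cell receptor transgene, which all 4 groups share and which gives most T cells one receptor specificity. They came from wild-type or BATF-/- mice, both labelled as C57Bl/6, and were purified by magnetic removal of other cells. Naive cells (day 0) gave 2 wild-type and 3 Batf-/- arrays. Cells kept for 3 days on plate-bound antibodies against CD3 and CD28 with 100 U/ml human IL-2 gave 4 arrays of each genotype. The labels give no age, and whether replicate arrays hold RNA of different animals or cultures is not said, so p-values measure the spread between arrays, which may be technical.

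BATF is a transcription factor of the AP-1 group. It pairs with a Jun protein and binds DNA at AP-1 sites, often beside an interferon regulatory factor, and it is known in CD8+ T cells for its role in the change from the naive to the effector state. A gene deletion made in embryonic stem cells of one mouse strain can stay flanked by DNA of that strain after breeding to another strain, and genes in the flanking DNA then differ between mutant and control mice in sequence as well. No DNA sequence was measured in these samples, so a part of strain variants in any value given here was not tested. A probe set of the array reads only a short stretch of a transcript, so several probe sets of 1 gene are separate readings of it.

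Of the 7 genes, 6 have an upstream window in the RefSeq promoter table (GRCm38.p6). The 250 bases upstream of the annotated start are shown for 4 genes with different genotype patterns, on the strand of the gene and 5′ to 3′, because BATF could bind at such places. The capitals mark TGANTCA, a loose pattern for the AP-1 site in which N can be any base.
Ap4s1, chr12:51690716-51690965, plus strand: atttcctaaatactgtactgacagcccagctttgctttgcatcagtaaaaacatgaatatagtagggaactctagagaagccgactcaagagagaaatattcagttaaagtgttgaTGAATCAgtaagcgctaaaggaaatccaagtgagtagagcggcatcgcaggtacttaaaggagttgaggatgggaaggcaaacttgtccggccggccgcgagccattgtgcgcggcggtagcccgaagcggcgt
Arhgap5, chr12:52515827-52516076, plus strand: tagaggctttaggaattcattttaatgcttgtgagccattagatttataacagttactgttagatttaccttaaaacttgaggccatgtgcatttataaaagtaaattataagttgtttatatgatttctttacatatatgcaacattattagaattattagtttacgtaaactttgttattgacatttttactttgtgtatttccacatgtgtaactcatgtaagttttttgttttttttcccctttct
Vcpkmt, chr12:69583018-69583267, minus strand: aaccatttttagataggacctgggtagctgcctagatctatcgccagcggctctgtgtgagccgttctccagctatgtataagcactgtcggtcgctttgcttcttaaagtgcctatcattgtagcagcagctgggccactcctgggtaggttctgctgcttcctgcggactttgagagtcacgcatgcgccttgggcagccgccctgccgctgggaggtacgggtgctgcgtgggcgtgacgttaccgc
Churc1, chr12:76765288-76765537, plus strand: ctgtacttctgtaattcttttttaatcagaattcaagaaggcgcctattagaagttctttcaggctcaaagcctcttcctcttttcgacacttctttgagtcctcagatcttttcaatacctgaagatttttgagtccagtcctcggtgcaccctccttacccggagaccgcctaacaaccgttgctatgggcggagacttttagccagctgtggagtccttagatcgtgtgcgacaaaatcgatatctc
Both strands were searched for TGANTCA, which reads the same on either strand, in windows of 300 bases that also hold the first transcribed bases. It was found in 1 of the 6 windows, that of Ap4s1, where it reads TGAATCA and begins 134 bases upstream of the start. Among all 32851 windows of that length in the table, 7.81% hold it. The Arhgap5 window holds 26.4% G and C, against 45.2% to 57.6% in the other 3 shown. These matches describe the sequence and say nothing of binding.

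The values are RMA intensities, which are corrected for background and normalised between arrays, and are given here as log2. A difference of 1 is therefore a 2-fold difference in intensity. Levels of different probe sets are not compared with each other, since each has its own probes. Array medians lay between 31.5 and 32.5 on the linear scale. A probe set counts as called where the adjusted p of limma was below 0.05, and the lowest 40% of probe sets, with means under 4.35 on the log2 scale, are called dim.

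Markers of CD8+ T cells were high on all 13 arrays, with means over 6 of the 7 listed genes between 11.67 and 12.23. In naive cells, however, some markers of other cells differed between genotypes or between arrays. The mean of 7 measured B cell markers was 6.00 to 6.41 on wild-type and 6.73 to 7.12 on Batf-/- arrays, and 3 of the 7 were called, all higher in Batf-/- cells. For 5 measured natural killer cell markers the range was 6.51 to 6.70 against 7.36 to 8.22, with 2 called, both higher. The mean of 8 measured neutrophil markers was 5.48 to 5.81 on wild-type naive arrays, and 0 were called. It was 8.72, 4.99 and 6.06 on Batf-/- naive replicates 1, 2 and 3, so that replicate 2 was below both wild-type arrays. The 4 measured erythroid markers lay at 5.92 to 6.48 against 6.17 to 6.97, with 1 called, and the 6 monocyte or macrophage markers at 5.75 to 5.88 against 5.58 to 7.26, with 0 called. At day 3 none of these 5 lists had a called gene and their array means were between 4.03 and 5.0. The 4 CD4+ T cell markers lay between 4.67 and 5.21 on all arrays, with 0 called. The part of these other cells in the naive values below was not tested, and fewer cells of a type and less RNA per cell cannot be told apart in such samples.

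Batf, the deleted gene, read 9.19 and 9.36 in wild-type naive cells and 5.60, 6.06 and 5.94 in Batf-/- naive cells. At day 3 it read 8.63, 8.80, 8.83 and 9.19 in wild type against 6.77, 5.56, 5.61 and 6.00 without BATF. The groups did not overlap in either state, with differences of -3.41 ± 0.29 (SE) and -2.88 ± 0.22 on the log2 scale, so the labels and this probe set go together.

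All 7 genes lie on the side of Batf with lower coordinates, and none of them is close to it. Fntb is the nearest, at 8.85 Mb from start to start with 92 measured genes in between. Churc1 follows at 8.92 Mb and Akap5 at 9.36 Mb, so that these 3 genes form a group, and Churc1 and Fntb are only 0.07 Mb apart. Vcpkmt lies 16.11 Mb from Batf. Arhgap5 at 33.18 Mb and Ap4s1 at 34.01 Mb form a pair 0.82 Mb apart, with 5 measured genes between them. Adi1 is the most distant, at 57.01 Mb with 295 measured genes between it and Batf.

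**Figure D1:**
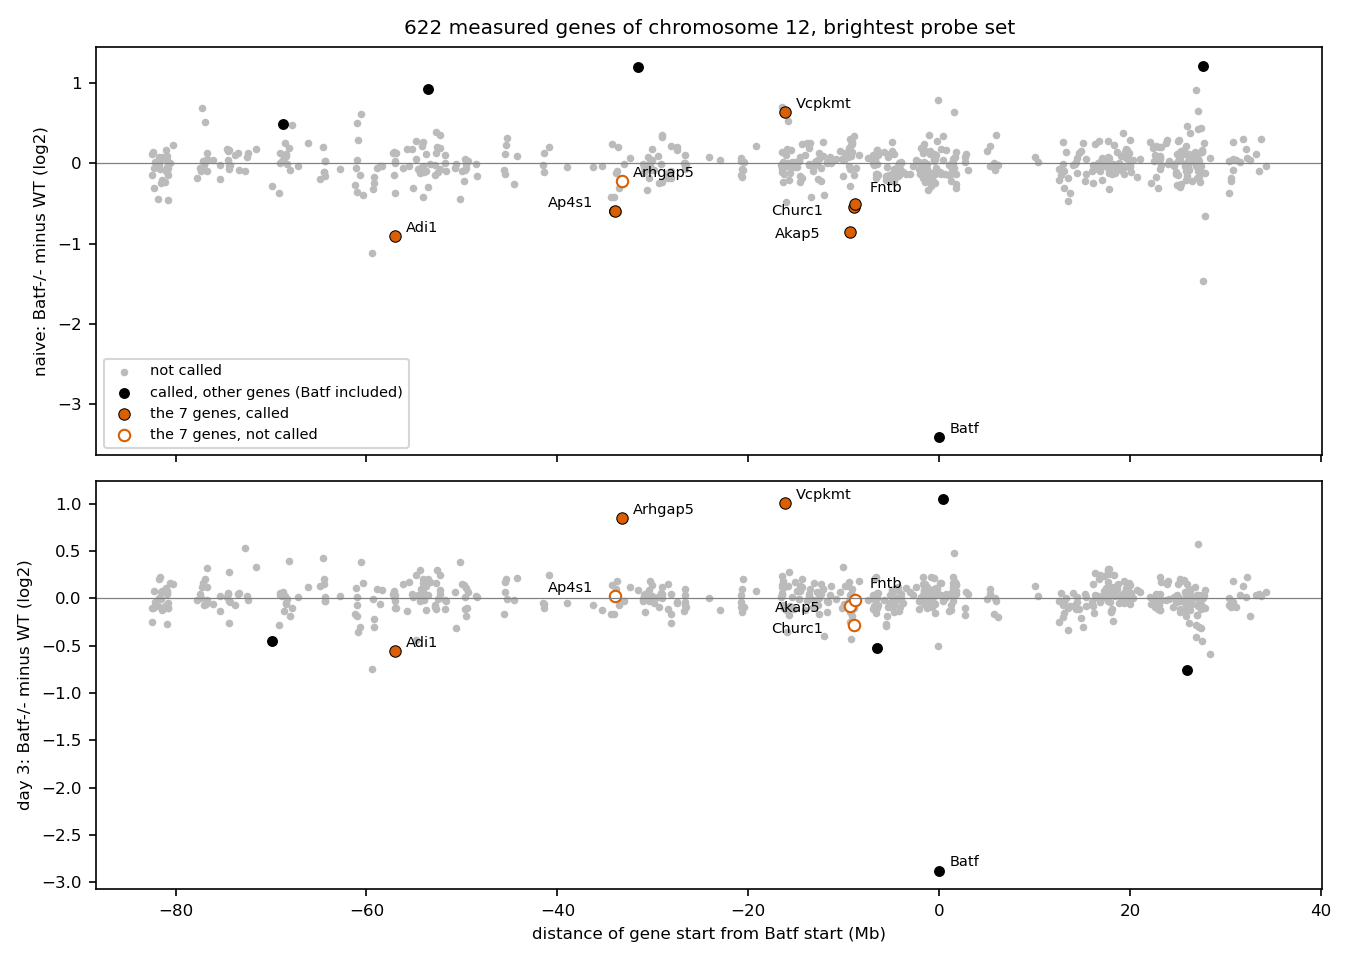
Log2 difference between Batf-/- and wild-type cells (vertical axis; naive above, day 3 below) against the distance of the gene start from the start of Batf in Mb (horizontal axis), for the brightest probe set of each of 622 genes of chromosome 12. Orange points are the 7 genes, filled where called, black points are other called genes with Batf included, and all 7 lie between 8.85 and 57.01 Mb to the left of Batf.

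Adi1 encodes acireductone dioxygenase, an enzyme of methionine salvage, the route that recovers methionine from the by-product of polyamine synthesis. Its 3 probe sets did not go the same way. Probe set 1438758_at read 8.64 and 8.74 in wild-type naive cells and 6.46, 6.10 and 6.37 in Batf-/- naive cells. The day 3 values were 8.57, 8.75, 8.56 and 8.68 in wild type and 7.77, 7.60, 7.67 and 7.75 without BATF. The wild-type level was thus nearly the same in both states, every Batf-/- array was below every wild-type array, and the gap was larger in naive cells. The differences were -2.38 ± 0.11 (SE) in naive cells, a 5.2-fold lower intensity, and -0.94 ± 0.08 at day 3.

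The brightest Adi1 probe set, 1438759_x_at, is designed from the same source sequence as 1438758_at and had the same order of groups at a smaller scale. It read 8.88 and 9.02 in wild-type naive cells against 7.88, 8.06 and 8.18 without BATF, and 8.79 to 8.99 against 8.25 to 8.43 at day 3. The differences were -0.91 ± 0.10 and -0.55 ± 0.08. The 2 probe sets followed each other over the 13 arrays with Pearson's r of 0.94. The third, 1449076_x_at, comes from another source sequence and was turned the other way. It read 8.06 and 8.37 in wild-type naive cells and 9.02, 9.07 and 9.05 in Batf-/- naive cells, a difference of 0.83 ± 0.13. At day 3 its groups overlapped, with 7.69 to 8.14 in wild type and 8.01 to 8.20 without BATF. Its correlations with the other two Adi1 probe sets were -0.72 and -0.87. Adi1 therefore has 2 readings that were lower without BATF and 1 that was higher, and no single direction can be given for its RNA. The suffix x marks probe sets that may also detect other transcripts.

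**Figure D2:**
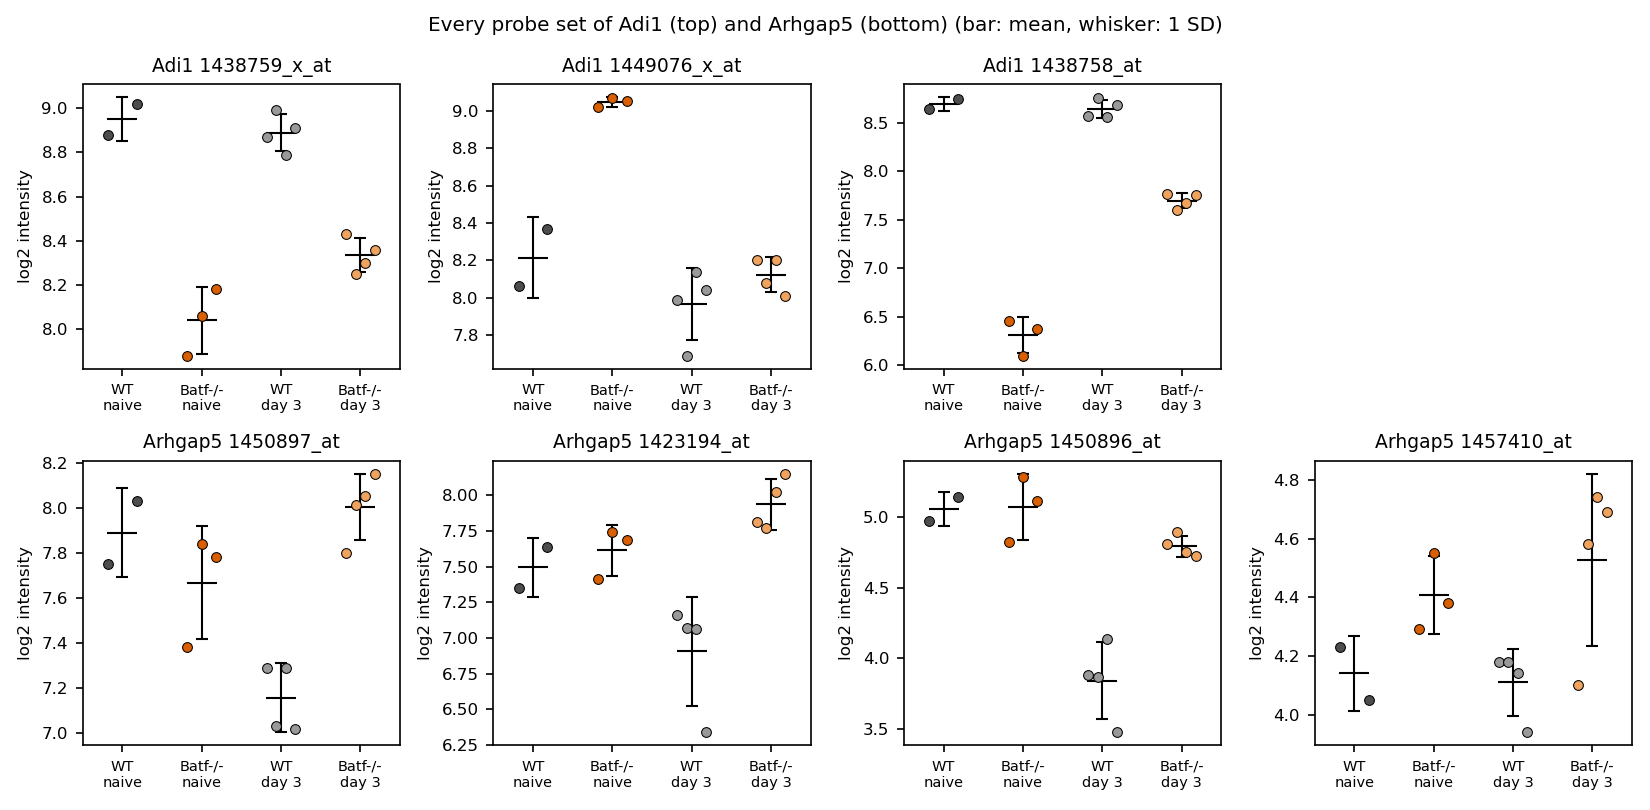
Log2 intensity (vertical axis) by genotype and state for the 3 probe sets of Adi1 (top) and the 4 of Arhgap5 (bottom); points are arrays, bars are group means and whiskers 1 SD, and each panel has its own axis range. The Adi1 probe sets differ in direction, with 1449076_x_at at 9.02 to 9.07 in Batf-/- naive cells, above all other arrays, whereas 3 of the Arhgap5 probe sets are lowest in wild-type cells at day 3.

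Vcpkmt encodes the methyltransferase that places methyl groups on a lysine of VCP, an ATPase that extracts proteins from complexes. It was higher without BATF in both states. Its 1 probe set read 7.93 and 7.94 in wild-type naive cells and 8.58, 8.51 and 8.64 in Batf-/- naive cells. Stimulated cells gave 7.99, 8.01, 8.11 and 7.89 in wild type and 8.89, 8.91, 9.06 and 9.16 without BATF. No Batf-/- array came near a wild-type array, and the 6 wild-type arrays differed from each other by less than the genotypes did. The differences were 0.64 ± 0.09 (SE) in naive cells and 1.01 ± 0.07 at day 3, the latter a 2.01-fold higher intensity.

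Fntb encodes the beta subunit of protein farnesyltransferase, which attaches a farnesyl lipid to Ras and other proteins. It read 7.40 and 7.49 in wild-type naive cells and 6.98, 7.05 and 6.78 in Batf-/- naive cells, which were the 3 lowest of all 13 arrays. At day 3 the 4 wild-type arrays read 7.27, 7.51, 7.59 and 7.51 and the 4 Batf-/- arrays 7.56, 7.37, 7.44 and 7.43, and these overlapped. The differences were -0.51 ± 0.11 (SE) and -0.02 ± 0.08.

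Arhgap5 encodes a GTPase-activating protein. For 3 of its 4 probe sets the genotypes were apart at day 3 and overlapped in naive cells. Its brightest probe set, 1450897_at, read 7.75 and 8.03 in wild-type and 7.38, 7.84 and 7.78 in Batf-/- naive cells. After stimulation it read 7.29, 7.03, 7.29 and 7.02 in wild type and 7.80, 8.01, 8.05 and 8.15 without BATF. The naive groups overlapped and the day 3 groups did not, with differences of -0.22 ± 0.15 (SE) and 0.85 ± 0.12. Probe sets 1423194_at and 1450896_at come from the same source sequence and gave day 3 differences of 1.03 ± 0.16 and 0.95 ± 0.13, with naive differences of 0.12 ± 0.21 and 0.02 ± 0.16. For 1450896_at the wild-type day 3 mean of 3.84 is in the dim range, so the size of its difference is uncertain. For 1423194_at the value of wild-type day 3 replicate 4, 6.34, lay below the other 3 arrays, at 7.06 to 7.16. The fourth probe set, 1457410_at, has a source sequence of its own and is dim by its mean over the 13 arrays, which read 3.94 to 4.74. It overlapped between genotypes at day 3, with a difference of 0.42 ± 0.12, whose size is uncertain. All 4 Arhgap5 probe sets were thus higher without BATF at day 3 in their means, and the 3 from 1 source sequence had correlations of 0.79 to 0.90 with each other over the 13 arrays.

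Akap5 encodes a scaffold that holds protein kinase A, protein kinase C and calcineurin at the membrane. Only 1 of its 3 probe sets was above the dim range in any group. By its mean over the 13 arrays, 4.19, this probe set, 1431717_at, is dim. It read 5.29 and 5.12 in wild-type naive cells and 3.95, 4.77 and 4.31 in Batf-/- naive cells. The naive groups did not overlap, but the 3 Batf-/- arrays were spread widely. The difference was -0.86 ± 0.17 (SE), and -0.66 without Batf-/- naive replicate 1. Its size is uncertain, since the Batf-/- mean of 4.35 is just below the dim threshold and Akap5 was chosen by genotype. At day 3 all 8 arrays were dim, at 3.89 to 3.95 in wild type and 3.70 to 3.90 without BATF. The remaining probe sets, 1436142_at and 1447301_at, were dim on all 13 arrays and give no second reading of Akap5.

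Ap4s1 encodes the small subunit of AP-4, an adaptor complex that sorts cargo such as ATG9A out of the trans-Golgi network. Its 1 probe set read 9.73 and 9.65 in wild-type naive cells and 9.06, 9.09 and 9.12 in Batf-/- naive cells. At day 3 it read 8.0, 8.07, 8.09 and 8.27 in wild type and 8.20, 8.15, 8.07 and 8.13 without BATF. The naive groups were apart with little spread inside each, and the day 3 groups lay on top of each other. The differences were -0.60 ± 0.09 (SE) and 0.03 ± 0.07.

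Churc1 encodes Churchill, a small zinc-binding protein known from its action downstream of FGF signals in embryos. Probe set 1425455_a_at read 10.76 and 10.79 in wild-type naive cells and 10.11, 10.25 and 10.35 without BATF. The day 3 arrays gave 10.79, 10.82, 10.94 and 10.96 in wild type and 10.63, 10.53, 10.60 and 10.62 without BATF. Every Batf-/- array was below every wild-type array in both states, by small amounts: the differences were -0.54 ± 0.09 (SE) and -0.28 ± 0.07. The second Churc1 probe set, 1446402_at, was dim on all arrays (3.48 to 4.18).

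**Figure D3:**
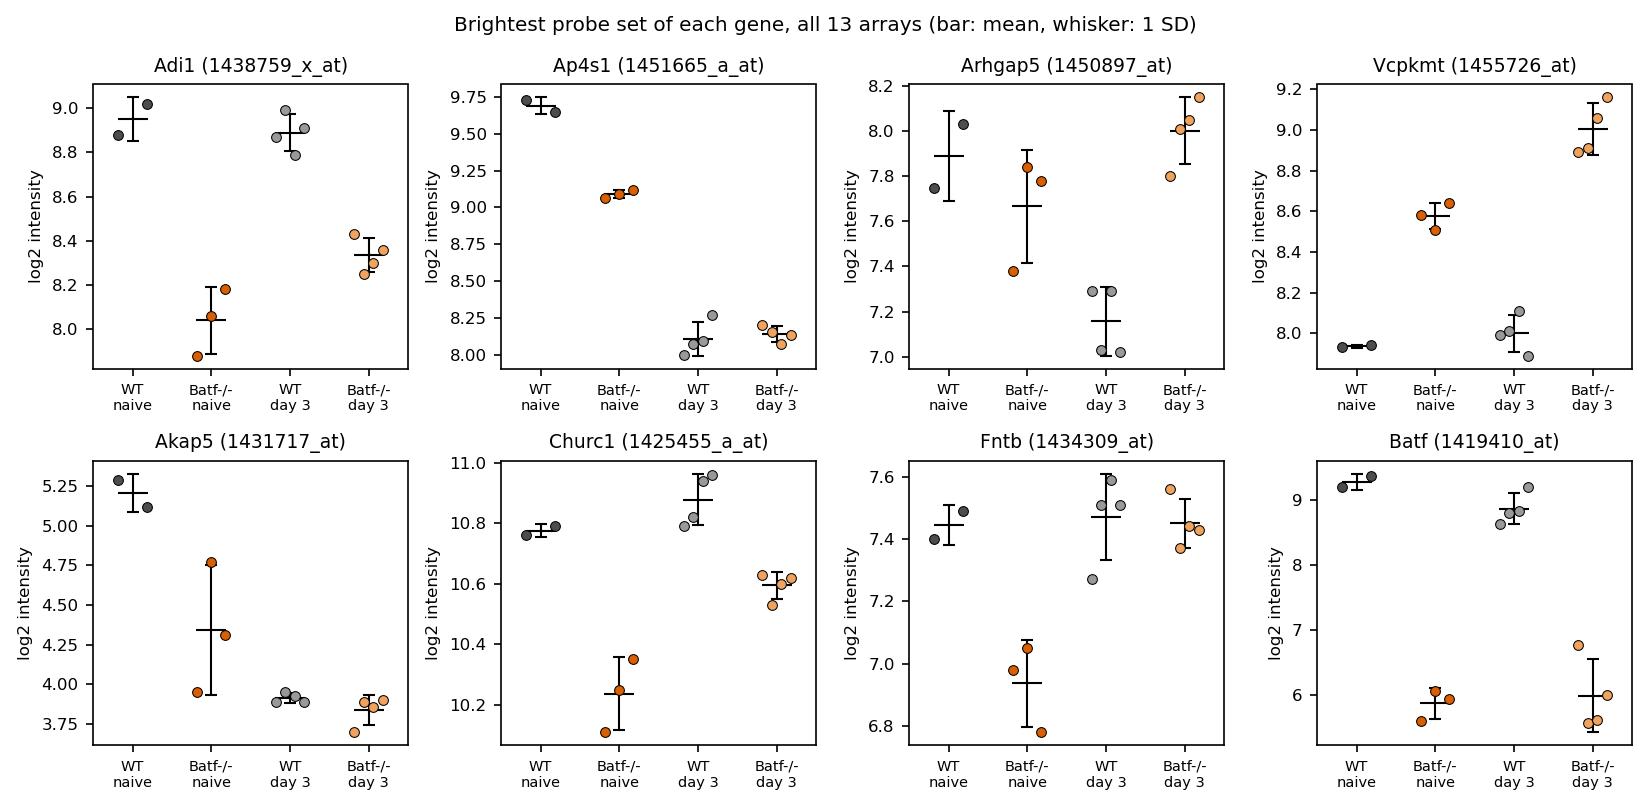
Log2 intensity (vertical axis) of the brightest probe set of each of the 7 genes and of Batf by genotype and state; points are the 13 arrays, bars are group means, whiskers 1 SD, and each panel has its own axis range. Vcpkmt is higher and Adi1 and Churc1 are lower in Batf-/- cells in both states, Ap4s1, Akap5 and Fntb are lower in naive cells and overlap at day 3, and Arhgap5 is higher at day 3 and overlaps in naive cells.

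Among the 15 probe sets, 8 were called between genotypes in naive cells, 2 higher and 6 lower without BATF, where 0.739% of all 45037 tested probe sets were called. By gene, using the brightest probe set, 6 of 7 were called, against 0.863% of all genes. At day 3, 6 of 15 probe sets were called, 4 higher and 2 lower, against 0.773% of all, and 3 of 7 genes, against 1.05%. The naive groups did not overlap for 9 of the 15 probe sets, where this held for 24.9% of all, and the day 3 groups for 7, against 9.83%. As these contrasts chose the genes, nothing is read from these shares. The naive calls depended on single wild-type arrays: without wild-type naive replicate 1 the count was 3, without replicate 2 it was 4, and with the 5 naive arrays fitted alone it was 1. Without Batf-/- naive replicate 1, the array with the neutrophil markers, the naive differences were -2.45 for Adi1 1438758_at, 0.64 for Vcpkmt, -0.59 for Ap4s1, -0.53 for Fntb, -0.47 for Churc1 and -0.66 for Akap5.

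The sizes of the naive and the day 3 differences went together in different ways. Vcpkmt and Arhgap5 had the larger difference at day 3. Adi1 and Churc1 had the larger one in naive cells and kept the sign. Ap4s1, Akap5 and Fntb were below wild type in naive cells and within 0.08 of it at day 3. Over the whole array 21 probe sets, 0.0466%, were called in both states, and 3 of them belong to the 7 genes: both low Adi1 probe sets and that of Vcpkmt. These contrasts chose the 7 genes, so nothing is read from that count. Other chromosome 12 probe sets were called in both states as well: that of Batf and 1 each of Acp1, Daam1 and Atxn7l1, the last at 0.69 and 0.54. Acp1, Daam1 and Atxn7l1 were picked out after their values were seen.

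**Figure D4:**
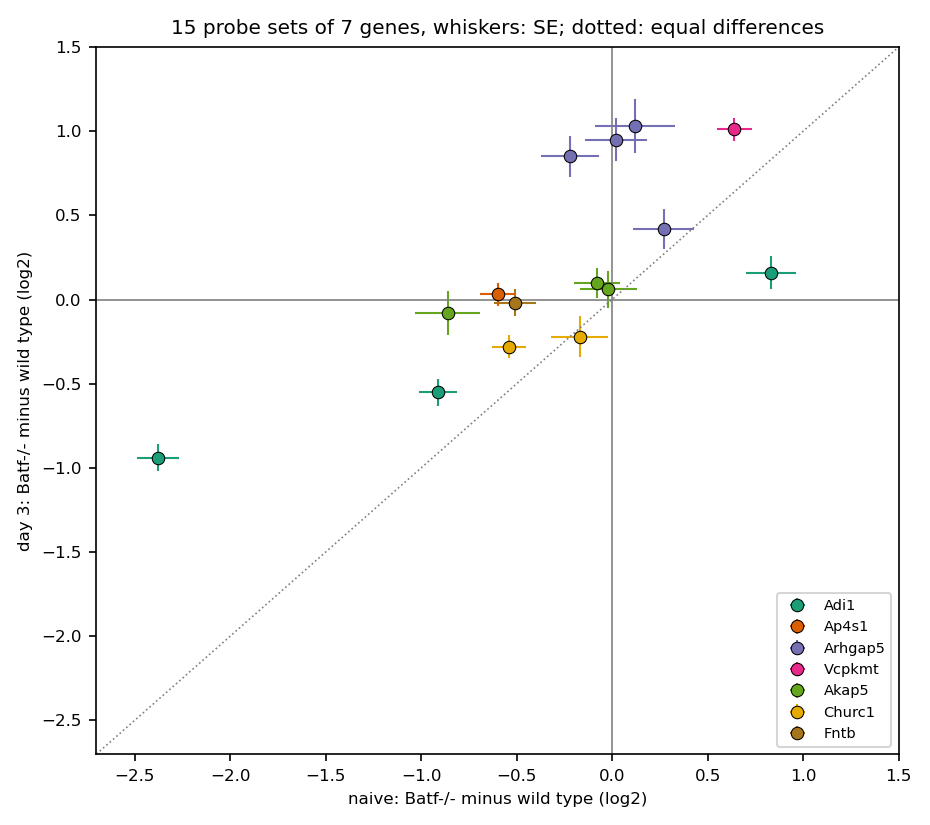
Batf-/- minus wild-type log2 difference at day 3 (vertical axis) against the same difference in naive cells (horizontal axis) for the 15 probe sets, coloured by gene, with whiskers of 1 SE and a dotted line of equal differences. Adi1 1438758_at lies at -2.38 and -0.94, Vcpkmt at 0.64 and 1.01, and 3 Arhgap5 probe sets between 0.85 and 1.03 on the day 3 axis with naive differences from -0.22 to 0.12.

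On chromosome 12 as a whole, 12 of 622 genes were called in naive cells, 1.93%, and 8 at day 3, 1.29%. In naive cells this was the second highest share of 20 chromosomes, after chromosome 6 with 2.12%, and at day 3 it was the sixth highest. Without the 7 genes and Batf, the naive count was 5 of 614, 0.814%, and the day 3 count 4 of 614, 0.651%. By all probe sets rather than the brightest, the naive count without them was 22 of 1268, 1.74%, beside 0.739% over the array. The day 3 count was 13 of 1268, 1.03%, beside 0.773%. With antibody heavy chain genes left out as well, the naive counts were 19 of 1249 probe sets, 1.52%, and 4 of 610 genes, 0.656%. Leaving out genes that were chosen for their difference lowers the share by construction, so nothing is read from it. Single arrays moved these counts. Leaving out wild-type naive replicate 1 gave a naive count of 7, wild-type naive replicate 2 a count of 5 and Batf-/- naive replicate 2 a count of 28. The day 3 count became 24 when Batf-/- naive replicate 1 was left out. It became 5 when replicate 2 of either genotype, or replicate 3 of Batf-/-, was left out at day 3.

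Within 5 Mb of Batf, 97 genes were measured. By brightest probe set 1 of them was called in naive cells, 1.03%, beside 0.863% of all genes, and this was Batf itself. At day 3, 2 were called, 2.06%, beside 1.05% of all genes, with Batf among them. A second probe set there, 1 of the 6 of Entpd5 at 1.31 Mb from Batf, was called too, at -0.44, and was picked out after its value was seen. At day 3, Tgfb3, which encodes a TGF-beta ligand and starts 0.37 Mb from Batf, was called as well, with 1.05 higher log2 intensity without BATF (limma adjusted p = 0.0153). That call was lost when wild-type day 3 replicate 2 or Batf-/- day 3 replicate 2, 3 or 4 was left out (limma adjusted p = 0.0539 to 0.0604). Between 5 and 10 Mb, 3 of 51 genes, 5.88%, were called in naive cells, beside 0.863% of all genes. These were Akap5, Churc1 and Fntb, which were chosen for their difference, so nothing is read from that share. At day 3 the 1 called gene in that range was Rdh12, a retinol dehydrogenase 6.48 Mb from Batf, at -0.52. By probe sets other than the brightest, Sel1l at 6.12 Mb was also called in naive cells, at 0.66 and 0.84. Rdh12 and Sel1l were picked out after their values were seen. The genes flanking Batf, Jdp2 and Flvcr2, had naive differences of 0.79 ± 0.27 (SE) and -0.10 ± 0.11 and were not called in either state.

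**Figure D5:**
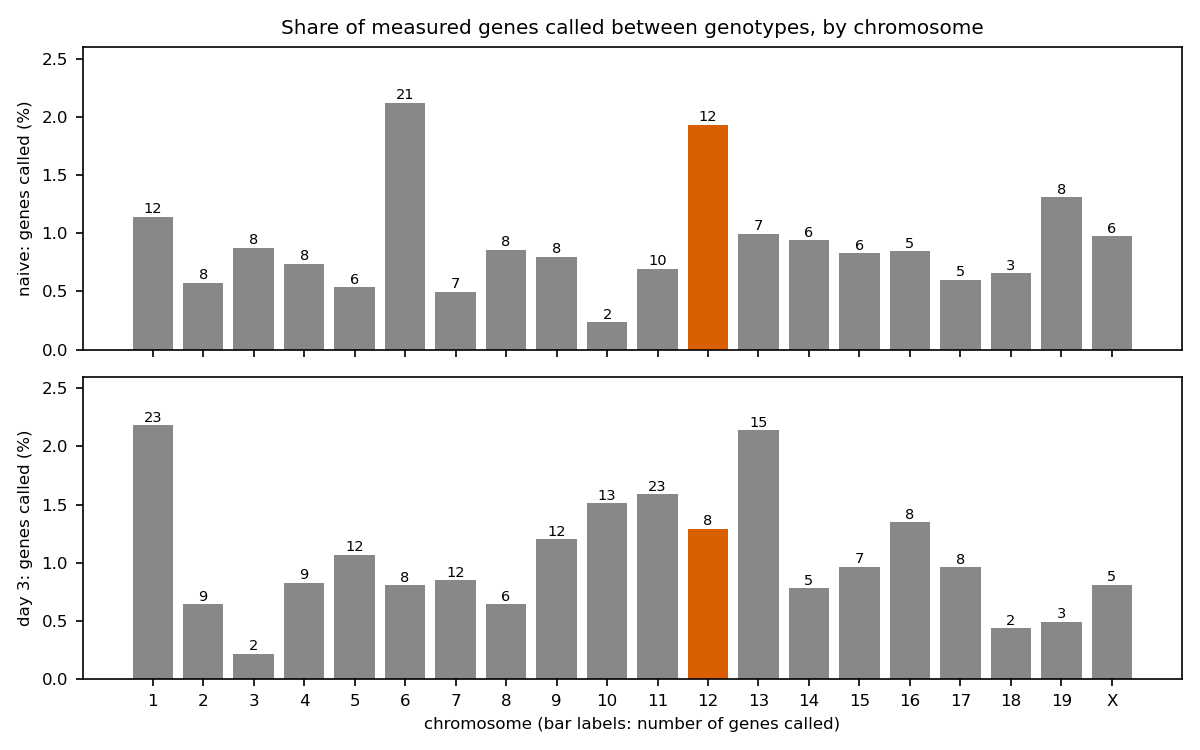
Percent of measured genes called between genotypes (vertical axis) by chromosome (horizontal axis), in naive cells above and at day 3 below, with the number of called genes over each bar. Chromosome 12, in orange, stands at 1.93% in naive cells and 1.29% at day 3, with the 7 genes and Batf included.

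The neighbours of the 7 genes were not chosen by a difference, unlike the 7 genes themselves. Of the 14 measured genes next to a member, none was called in either state by its brightest probe set. Of all genes 0.863% were called in naive cells and 1.05% at day 3. At such shares 0 of 14 is near that of the array, so nothing is read from it. Beside Adi1, Rnaseh1 differed by 0.03 ± 0.09 (SE) and Trappc12 by -0.37 ± 0.10 in naive cells. Strn3, 0.072 Mb from Ap4s1, had a naive difference of -0.42 ± 0.10, the largest of the 14. Beside Arhgap5, Nubpl differed by -0.31 ± 0.10 and Akap6 by -0.0 ± 0.13 in naive cells. Beside Akap5, Zbtb25 differed by -0.28 ± 0.10 in naive cells and -0.25 ± 0.08 at day 3, and Mthfd1 by 0.19 ± 0.14 and 0.18 ± 0.11. Sos2, only 0.007 Mb from Vcpkmt, differed by 0.10 ± 0.13 in naive cells and -0.11 ± 0.10 at day 3, both small beside the differences of Vcpkmt. Between Churc1 and Fntb lie Gpx2 and Rab15, at 0.34 ± 0.13 and -0.14 ± 0.11 in naive cells, while Churc1 and Fntb were both lower by about the same amount.

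Other chromosome 12 genes with large called differences were farther from Batf or on its other side. Egln3, an oxygen-sensing prolyl hydroxylase in the region of Arhgap5, was 1.20 higher without BATF in naive cells (limma adjusted p = 0.000398). Pik3cg, a PI3 kinase catalytic subunit, was 0.92 higher there (adjusted p = 0.00118 with limma). Ckb, the brain creatine kinase 25.98 Mb from Batf, had a day 3 difference of -0.75 (limma adjusted p = 0.00083). Igha, which encodes an antibody heavy chain made by B lineage cells, was 1.22 higher in Batf-/- naive cells (limma adjusted p = 0.019), beside the B cell markers given above. With the naive arrays fitted alone, Egln3, Pik3cg and Igha did not pass (limma adjusted p = 0.318, 0.393 and 0.581). Igha also did not pass without wild-type naive replicate 1 (limma adjusted p = 0.117) or replicate 2 (0.0819), nor Pik3cg with its probe sets averaged (0.38; limma adjusted p = 0.0864).

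Stimulation was not used to choose the genes. However, the change within 1 genotype shares its arrays with the genotype differences, so the change averaged over both genotypes was tested instead. The averaged change still holds the values that chose the genes, and the naive groups are of unequal size. Its p-values are therefore not free of that choice. Of the 15 probe sets, 8 passed, 4 rising and 4 falling, where 49.1% of all probe sets passed, and 5 of the 7 genes, against 55.0% of all genes. The share among the 7 genes is therefore near that of the array. The median of the 15 averaged changes was -0.11, beside 0.038 over all probe sets.

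Ap4s1 fell by 1.27 on the log2 scale with stimulation (SE 0.05; limma adjusted p = 2.12e-10), and all 8 day 3 arrays were below all 5 naive arrays. The change was -1.58 in wild type and -0.95 without BATF, from different naive levels to one day 3 level. Akap5 fell by 0.90 (SE 0.11; limma adjusted p = 5.46e-06), from a low level into the dim range, so the size of this fall is uncertain. These 2 genes were the ones that fell in both genotypes by their brightest probe set.

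Vcpkmt, Churc1 and Fntb rose by small amounts in the averaged contrast: 0.25 ± 0.06 (SE; limma adjusted p = 0.00333), 0.23 ± 0.06 (adjusted p = 0.00317 with limma) and 0.27 ± 0.07 (adjusted p = 0.00454 with limma). Their wild-type changes were 0.06, 0.10 and 0.02 and their Batf-/- changes 0.43, 0.36 and 0.51, so most of each averaged rise lay in Batf-/- cells. The Batf-/- naive values are among those that chose these genes, so the rises are not separate from that choice. With all probe sets of a gene averaged, the Churc1 rise was lost (0.03; limma adjusted p = 0.642).

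The probe sets of Adi1 and Arhgap5 did not change alike. The brightest Adi1 probe set changed by 0.12 ± 0.06 (SE; limma adjusted p = 0.136), while 1438758_at rose by 0.67 (limma adjusted p = 1.23e-06) and 1449076_x_at fell by 0.59 (limma adjusted p = 2.38e-05). The rise of 1438758_at came from Batf-/- cells, with changes of 1.39 there and -0.05 in wild type. It too rests on Batf-/- naive values that chose the gene. Arhgap5 1450897_at had an averaged change of -0.20 ± 0.10 (limma adjusted p = 0.104), made of -0.73 in wild type and 0.34 without BATF. Probe set 1450896_at fell by 0.74 (limma adjusted p = 2.74e-05), with -1.21 in wild type and -0.28 without BATF. The wild-type day 3 mean is dim, so the size of this fall is uncertain. The other two Arhgap5 probe sets had averaged changes of -0.13 and 0.04 and did not pass (limma adjusted p = 0.437 and 0.744). Array weights (-0.22; limma adjusted p = 0.0383), the fit without Batf-/- naive replicate 1 (-0.27; limma adjusted p = 0.0163) and the mean of all its probe sets (-0.26; limma adjusted p = 0.0271) put Arhgap5 past the threshold.

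Within wild-type cells 5 of the 15 probe sets were called, all lower at day 3, against 38.6% of all probe sets. Within Batf-/- cells 9 of 15 were called, 6 higher and 3 lower, against 38.3% of all. By gene the counts were 3 of 7 in wild type, against 43.7%, and 7 of 7 without BATF, against 44.8%. These counts are not independent of how the genes were chosen, since a low Batf-/- naive value lowers the genotype difference and raises the change within Batf-/- cells at once.

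Of the genes that work with 5 of the 7 proteins, none passed the test between genotypes. Lists were made for methionine salvage and polyamine synthesis, the AP-4 complex, protein prenylation, kinases and phosphatases held by AKAP scaffolds, and VCP with the METTL21 family. Of their 51 genes 46 were measured, and limma called 0 in naive cells and 0 at day 3, with 4 and 3 at an unadjusted p under 0.05. List medians were between -0.10 and 0.06 in naive cells and between -0.03 and 0.13 at day 3, beside 0.0 and 0.014 over all genes.

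With stimulation many partner genes changed, as did 43.7% and 44.8% of all genes in the 2 genotypes. In wild-type cells 11 of the 46 rose and 21 fell, and without BATF 11 rose and 20 fell. The genes named below passed in both genotypes, with limma adjusted p of at most 0.0486. Of the 7 measured genes of methionine salvage and polyamine synthesis, 1 rose and 4 fell in each genotype. Among them Mtap, the phosphorylase that starts methionine salvage, fell by 1.30 in wild type and 1.13 without BATF, and spermidine synthase Srm fell by 1.20 and 1.05. Adi1 acts later in the same route, and its wild-type changes were -0.05, -0.06 and -0.25 for its 3 probe sets.

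Of the 9 measured AP-4 genes, 3 rose and 2 fell in each genotype, with Rusc2 among those that rose in wild type and Rusc1 in its place without BATF. Atg9a, the AP-4 cargo, rose by 0.49 in wild type and 0.57 without BATF, whereas Tepsin, an accessory protein of AP-4, fell by 0.58 and 0.27, the latter not past the threshold without Batf-/- naive replicate 2 (limma adjusted p = 0.0722). Ap4s1 fell more than Tepsin did, by the values above. Of 9 prenylation genes, 2 rose and 4 fell in wild type and 2 rose and 3 fell without BATF. Rabggtb, the beta subunit of the transferase that lipidates Rab proteins, rose by 0.65 and 0.51, and Chml, a Rab escort protein, by 0.54 and 0.56. The Chml call was lost in 12 of 23 alternatives in wild type and in 4 without BATF.

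For the AKAP list of 13 genes, 3 rose and 8 fell in wild type and 3 rose and 7 fell without BATF. Prkar2b, a regulatory subunit of protein kinase A, fell by 1.64 and 1.63, and Akap8, a nuclear scaffold, by 1.26 and 1.12, beside the fall of Akap5. For VCP and the METTL21 family, 2 of 8 rose in both genotypes, 3 fell in wild type and 4 without BATF. Mettl21a rose by 0.53 and 0.36, the latter not past the threshold with array weights (0.20; limma adjusted p = 0.10), and Mettl18 fell by 0.72 and 0.54.

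To find genes with the most similar genotype pattern, each array was set against the midpoint of the genotypes in its state, and Pearson's r was taken over the 13 arrays, which all genes share. The 3 genes nearest to Adi1, by its brightest probe set, were Batf (r = 0.968), Churc1 (0.96) and Pan2 (0.947). Adi1 probe set 1449076_x_at had r = -0.81 with that brightest one. Churc1 in turn was nearest to Adi1 (0.96), Batf (0.939) and Tmem63b (0.93). For Arhgap5 they were Rab11fip2 (0.968), Ptpn9 (0.942) and Lta (0.933), with day 3 differences of 0.85, 0.50 and 0.84. For Vcpkmt they were Mid1 (0.954), Psma2 (0.935) and Plek (0.931). In naive cells and at day 3, Mid1 was 1.22 and 1.88 higher without BATF, Psma2 only 0.09 and 0.12, and Plek 0.62 and 0.98. Ap4s1 was nearest to Spns1 (0.954), Arid2 (0.932) and Dhx16 (0.924), Akap5 to Commd8 (0.939), Mau2 (0.938) and Nlrc3 (0.937), and Fntb to Sult1a1 (0.903), Zranb1 (0.899) and Phc1 (0.881). Except for the mutual likeness of Adi1 and Churc1 with Batf, none of these nearest genes is on chromosome 12. Values set against the midpoint still hold the genotype difference, and that difference chose the genes whose likeness was sought. Adi1 and Churc1 were both chosen by it and Batf is the deleted gene, so nothing is read from their likeness.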

How the data were processed

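Expression was measured on 13 Affymetrix arrays. The authors deposited linear probe set intensity values made with RMA, per the submitters' processing notes; no version and no genome build is given in the sources used here. The intensities were converted to log2 and not normalised again. Probe sets were named from the platform table: 34958 have 1 gene, 932 several and 9211 none, and the latter were left unnamed. Distances and upstream windows come from RefSeq (GRCm38.p6).

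A linear model with a mean for each of the 4 groups used limma 3.58.1 in R 4.3.3 over all 13 arrays (lmFit, eBayes; 9 residual and 4.423 prior degrees of freedom), with two-sided tests and Benjamini-Hochberg adjustment over 45037 probe sets without 64 controls; the fit was tested on simulated data. Tables were made with pandas 2.3.3. A gene is represented by its probe set with the highest mean. Named are the 7 genes, Batf, the genes beside them, the 6 called chromosome 12 genes with the largest difference in each state, genes called in both, 2 genes of each of 5 partner lists (1 other list is not reported here) and the 3 genes most like each member. The members and all lists were chosen with earlier results of these data known. Tested alternatives were normalization, dim probe sets, eBayes options, array weights, a replicate block, the arrays fitted and the summary per gene. The averaged stimulation contrast, and the chromosome counts without antibody heavy chain genes, were added after the data were seen. The number of arrays limits the precision.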

Additional observations from a re-analysis of the deposited data

Results flagged for a closer look

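Dixon's test was applied to 32 groups of 4 arrays, of which chance flags about 1 in 20, and 3 were flagged. For Arhgap5 1423194_at the value of wild-type day 3 replicate 4 was 6.34, with the next lowest array at 7.06, a gap of 0.886 of the range. For Akap5 1447301_at and 1436142_at, both dim, Batf-/- day 3 replicate 1 was the highest array, at 3.34 against 2.86 (0.878 of the range) and at 2.56 against 2.45 (0.845).

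Arhgap5 1423194_at also changed in opposite directions with stimulation: the mean change was 0.32 in Batf-/- cells, where every day 3 array was above every naive array, and -0.59 in wild-type cells, where every day 3 array was below. This difference was not tested, since the same arrays were used to choose the gene.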

How the results depend on the processing

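In naive cells 333 probe sets were called between genotypes. The number was 662 with array quality weights and 2 with the naive arrays fitted alone. With 1 probe set a gene it was 196, and with probe sets averaged 188. At day 3 it was 348, against 528 without dim probe sets, 534 with an intensity trend, 1659 with weights and 894 with day 3 arrays alone. Leaving out 1 array gave 169 to 1623 and 127 to 770. Stimulation called 17402 probe sets in wild type (8258 and 8134 by gene, 13930 to 18684 with 1 array left out) and 17236 without BATF (8545 and 8430, 15631 to 17256).

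Of chromosome 12 genes, 12 were called in naive cells, 19 with weights, 1 with naive arrays alone and 5 to 28 with 1 array left out. At day 3 the 8 became 16 without dim probe sets, 20 with a trend, 44 with weights, 30 alone, 13 with 1 probe set a gene, 14 with probe sets averaged, and 5 to 24 with 1 array left out.

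The 8 naive calls among the 15 probe sets became 1 with naive arrays alone, 4 of 7 with probe sets averaged and 3 to 8 with 1 array left out, and the 6 at day 3 became 3 and 3 of 7 by gene and 6 to 7. The stimulation calls were 5 in wild type (3 and 3 by gene, 4 to 6), 9 without BATF (4 averaged, 8 to 10) and 8 in the averaged contrast (5 and 5, 8 to 9).

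No called value changed sign; some values that were not called did. The labels number the replicates, but of 16 pairs with the same number 0 had a correlation over 0.1 (-0.266 to 0.0727), so the numbers were not taken as pairs. With the replicate block the calls were 142 in naive cells, 163 at day 3, 15552 and 15771 for stimulation, 7 on chromosome 12 in naive cells, and 5 of the 15 probe sets in naive cells, and Igha did not pass (limma adjusted p = 0.093).

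The naive comparison has 2 wild-type arrays, and Batf-/- naive arrays spread more (median SD 0.138) than those of the other groups (0.0825 to 0.0915), so the pooled spread tends to be too small there. Where a probe set is dim, the size of its difference is uncertain.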

Other observations

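Other probe sets on the same chromosome, chosen after their values were seen, also differed in naive cells close to the 7 genes. Near Ap4s1, 34.09 Mb from Batf, the 1 probe set of Coch was called lower without BATF in naive cells. It is dim (mean 3.16), so the size of its log2 difference of -0.59 is uncertain. Close by, at 34.34 and 34.31 Mb, 1 of 3 probe sets each of G2e3 (-1.48) and Scfd1 (-1.10) were called as well. The remaining probe sets of Scfd1 reached 0.25 and those of G2e3 reached -0.42. Beside Akap5, 1 of 2 probe sets of Zbtb1 differed by -0.66 and the other by -0.08.

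Daam1, 13.86 Mb from Batf, was called in both states by 1 of its 3 probe sets, with 1.72 in naive cells and 1.10 at day 3, while the lowest differences among its probe sets were 0.22 and -0.03. For Acp1, 54.79 Mb from Batf and so in the region of Adi1, 1 of 6 probe sets was called in both states (-0.70 and -0.45), and its probe sets reached 0.27 and 0.25 in the other direction.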
